A study of Homo sapiens with 4 samples.

Results

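The MET and caveolin stretch of human chromosome 7 was described from the 16 of 5326 regions in the deposited tables whose closest gene is TES (4 regions), CAV2 (6), CAV1 (1), MET (3) or CAPZA2 (2). They run from base 115849041 to base 116505281 of build hg19. The 5 genes were chosen by the read levels of these libraries and their HNF4A over IgG ratios, so both are given as descriptions. HNF4A, a liver transcription factor of the nuclear receptor family, was mapped by chromatin immunoprecipitation with sequencing (ChIP-seq), in which an antibody pulls down a protein with its DNA. A nonspecific IgG antibody gave the background. The cells were HCCLM3, an established human hepatocellular carcinoma line. Each antibody was used at high and at low glucose, which gave 4 libraries, 1 per group. The labels' protocols describe HCCLM3 lines made to overexpress a full-length cDNA stably from a lentiviral vector. The labels do not say which gene was overexpressed in each library or which glucose concentrations were used, and the growth medium given for all 4 is a high glucose one. With 1 library per group, no difference below has a replicate check, and every interval covers counting error at most. The intervals and tests take each read as independent. PCR copies are not independent molecules, so intervals can be too narrow and p-values too small.

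MET encodes the receptor tyrosine kinase for hepatocyte growth factor, a signal for growth and movement of liver cells. CAV1 and CAV2 encode caveolins, which build caveolae, the small flask-shaped pits of the plasma membrane. TES encodes testin, a LIM domain protein of focal adhesions and actin fibres, and CAPZA2 an alpha subunit of the capping protein that closes the fast-growing end of actin filaments. In RefSeq's list of protein-coding genes on chromosome 7, the 5 genes stand side by side in the order TES, CAV2, CAV1, MET, CAPZA2. Regions are numbered below along the chromosome within each gene. Closeness to a gene, as the authors list it, does not show that the region regulates it, and whether a region lies in an exon or an intron was not analysed here.

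The promoters of TES, whose neighbourhood holds the regions highest over IgG, of CAV1, whose region held the most reads, and of MET are shown for context. Each is the 250 bases before the first listed start, read 5′ to 3′ on the plus strand, from RefSeq on GRCh38.p14. That is another build than the hg19 of the regions, so the positions of promoters and regions cannot be compared. All 5 genes matched an entry. Capitals mark AGGTCA, the half-site of nuclear receptors, and GGGCGG, the GC box, on either strand. The windows are chr7:116210289-116210538 for TES, chr7:116524759-116525008 for CAV1 and chr7:116671946-116672195 for MET.
TES: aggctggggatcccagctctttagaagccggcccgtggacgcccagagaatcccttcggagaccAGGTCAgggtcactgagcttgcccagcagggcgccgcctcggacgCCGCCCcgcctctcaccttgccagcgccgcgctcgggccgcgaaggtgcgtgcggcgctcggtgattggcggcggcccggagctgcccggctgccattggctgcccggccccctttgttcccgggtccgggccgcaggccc
CAV1: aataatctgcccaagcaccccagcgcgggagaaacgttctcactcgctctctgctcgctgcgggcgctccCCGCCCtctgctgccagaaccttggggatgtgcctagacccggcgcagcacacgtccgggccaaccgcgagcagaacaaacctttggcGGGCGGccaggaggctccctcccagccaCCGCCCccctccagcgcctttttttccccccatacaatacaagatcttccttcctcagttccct
MET: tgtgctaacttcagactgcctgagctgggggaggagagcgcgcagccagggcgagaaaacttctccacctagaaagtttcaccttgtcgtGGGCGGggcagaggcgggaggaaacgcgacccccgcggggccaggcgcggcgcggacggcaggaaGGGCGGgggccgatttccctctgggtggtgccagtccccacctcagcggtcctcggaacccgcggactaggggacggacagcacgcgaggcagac
AGGTCA occurred once in the TES window and in none of the other 4, against 12.1% of 35116 RefSeq windows of the same length. GGGCGG occurred in all 5 windows, with 1 match in TES, 6 in CAV2, 3 in CAV1, 2 in MET and 1 in CAPZA2, against 42.6% of windows with at least 1. CAAAGTCCA, a core of the HNF4A motif, was in 0.325% of windows, and the direct repeat of the half-site with 1 base between, which contains AGGTCA, in 0.0171%. On either strand, neither was found in the 5 windows. The windows held 63.6% to 83.2% G and C, against a median of 58% over all windows.

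All 16 regions were high in all 4 libraries, IgG included. A region was called high in all 4 when its reads per kb of length reached the 90th percentile of all regions in each library, at 71.8 (HNF4A) and 46.9 (IgG) reads per kb at high glucose and 51.9 and 32.1 at low glucose. Only 170 regions, 3.19%, did so. The 16 regions made up 0.300% of the regions and 0.997% of the covered bases. They held 5.68% of the HNF4A reads and 6.89% of the IgG reads at high glucose, and 6.47% and 9.02% at low glucose. Their median density at high glucose was 253 HNF4A and 201 IgG reads per kb, against 45.8 and 24.9 over all regions. At low glucose it was 208 and 214, against 33.1 and 16.7. The member nearest to the limit was TES region 2, whose lowest density stood at 1.30 times the 90th percentile. Just outside, a region nearest to TFEC missed it only for HNF4A at high glucose, with 70.3 reads per kb.

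The CAV1 region held the highest density of the 16 in every library. It spans 5776 bp (bases 116163221 to 116168996) and held 5776 HNF4A reads at high glucose, 4379 IgG reads at high glucose, 4496 HNF4A reads at low glucose and 3795 IgG reads at low glucose. These are 1000, 758, 778 and 657 reads per kb. Among all 5326 regions it ranked 3rd, 3rd, 3rd and 4th by reads in the same order. Both antibodies thus placed this caveolin region near the top of the list.

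The first of the CAV2 regions had the lowest density of the 6, and the others did not rise or fall in order towards CAV1. CAV2 region 1 (116007169 to 116011830) held 815 HNF4A and 763 IgG reads in the high glucose libraries, and 870 and 851 in those of low glucose. CAV2 region 4 (116061953 to 116069025) held 3196 and 2040 at high glucose, and 2802 and 2777 at low glucose. Per kb of length, the 6 CAV2 regions ranged from 164 to 362 IgG reads at high glucose and from 183 to 393 at low glucose, with the lowest value in region 1 in each library.

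On the other side of CAV1, MET region 1 (116353405 to 116357806) held 1535 HNF4A and 1165 IgG reads at high glucose, and 1189 and 1105 at low glucose. MET region 3 (116387802 to 116388779) held the fewest reads of the 16 in every library, with 143, 114, 110 and 86. CAPZA2 region 2 (116500154 to 116505281) held 1903 and 1603 at high glucose, and 1543 and 1387 at low glucose. Along the stretch the density peaked at CAV1, went down over the MET regions and was higher again at the CAPZA2 end. TES had the lowest density summed over its regions, with 95.6 IgG reads per kb at either glucose level, against 247, 758, 229 and 251 for CAV2, CAV1, MET and CAPZA2 at high glucose. In IgG at high glucose the range over the TES regions, 73.0 to 110, did not overlap those of the other genes, but at low glucose it overlapped that of MET, 87.9 to 251. The ranges of CAV2, MET and CAPZA2 overlapped in every library, so their order is not fixed beyond the spread between regions.

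**Figure D1:**
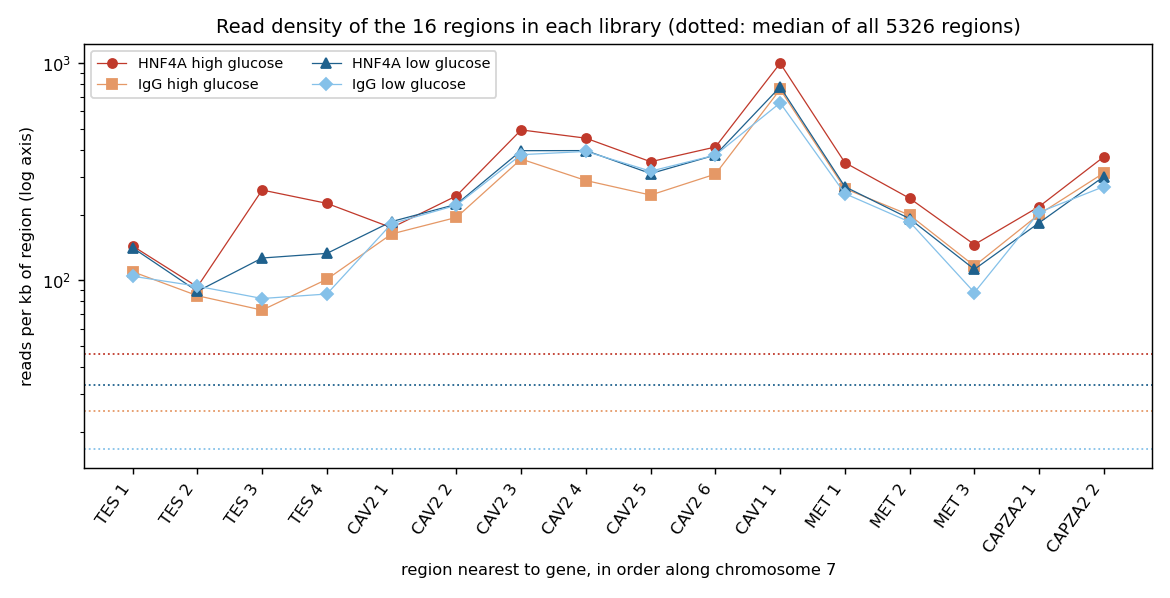
Reads per kb of region length (log axis) for the 16 regions in order along chromosome 7, with 1 point per library and the median of all 5326 regions in that library as a dotted line. All points lie above the medians, all 4 lines peak at the CAV1 region, and HNF4A at high glucose stands apart from the other libraries at TES regions 3 and 4.

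Across the 16 regions, the log2 densities of HNF4A and IgG had a Pearson correlation of 0.870 at high and 0.970 at low glucose, and those of the 2 IgG libraries 0.967. Each pair is measured over the same 16 sequences, which share their position and base composition, so these values describe the profile only. The regions were also long and closely spaced. Their median length was 4333 bp against 1030 bp over all regions, and the median gap to the next was 29.5 kb against 101 kb elsewhere on chromosome 7.

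The raised IgG density was not seen in the next listed regions after CAPZA2, and it went on for some distance before TES. The next listed region after CAPZA2 region 2 lay 1498 kb on, nearest to ANKRD7, with 9 IgG reads in the high and 3 in the low glucose library. Its IgG density at high glucose was 26.6-fold lower than that of CAPZA2 region 2, and no listed region shows where in between the level changes. The following regions, nearest to TSPAN12, WASL and SND1, held 8.78, 31.5 and 34.6 IgG reads per kb at high glucose, so none of the 4 came near the 73.0 of the lowest member. Before TES, the 4 nearest regions were all listed for TFEC, a transcription factor gene, with 48.6, 79.8, 97.6 and 70.5 IgG reads per kb at high glucose, within or below the range of the TES regions. Further out, the 19 regions nearest to MDFIC (5), LINC01393 (8) and TFEC (6) included 14 that were high in all 4 libraries. At the far end the IgG density stepped up 3.98-fold at high and 2.81-fold at low glucose between the region nearest to MIR3666 and the first MDFIC region, 250 kb apart. From that MDFIC region to CAPZA2, 30 of 35 regions over 1984 kb were high in all 4 libraries. The copy number of this interval was not analysed here.

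Against the other 482 regions of chromosome 7, the median IgG density of the 16 was 6.90-fold higher at high glucose and 10.5-fold higher at low glucose. Of those 482, 16 and 19 reached the lowest member's IgG density, 73.0 at high and 82.5 at low glucose, so such densities were not particular to the stretch. Some of them are the MDFIC, LINC01393 and TFEC regions beside it. That lowest density is well below the medians of the 16, 201 and 214. The highest of the 482 held 833 and 805 IgG reads per kb.

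**Figure D2:**
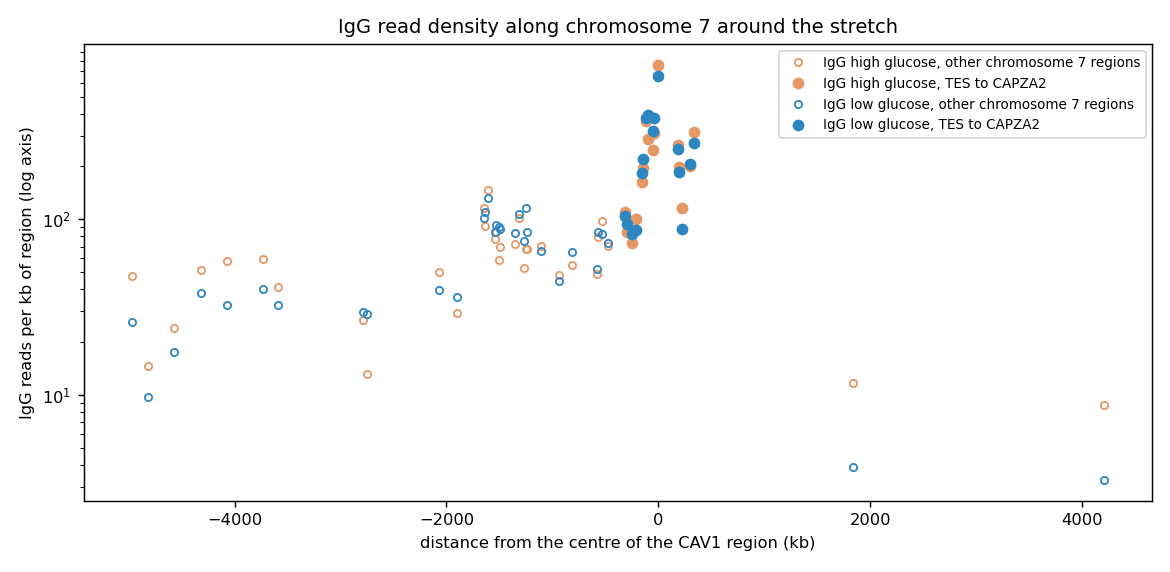
IgG reads per kb (log axis) of chromosome 7 regions against the distance in kb from the centre of the CAV1 region, with 1 point per region and library. The 16 regions (filled) peak at 758 and 657 reads per kb, those to the left go down to the TES regions (73.0 to 110 at high glucose) with TFEC and MDFIC regions at like levels beyond, and the nearest region to the right has 11.7 and 3.91.

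TES regions 3 and 4 were the only members at least 2-fold above IgG, and only at high glucose. Reads were scaled by relative library size before each ratio was taken. Ratios are on the log2 scale, with the exact 95% Clopper-Pearson interval in parentheses. TES region 3 (115912918 to 115914589) held 436 HNF4A and 122 IgG reads at high glucose, and 212 and 138 at low glucose. Its ratios were 1.69 (1.40 to 1.99), which is 3.23-fold, and 0.59 (0.28 to 0.91). The 2 IgG libraries and HNF4A at low glucose lay between 122 and 212 reads, so HNF4A at high glucose stands alone in this region. TES region 4 (115956348 to 115957849) held 340 HNF4A and 152 IgG reads at high glucose, and 200 and 130 at low glucose. Its ratios were 1.02 (0.74 to 1.30) and 0.60 (0.27 to 0.93). It lies just inside the 2-fold limit of 1, and the next member, CAV2 region 4, lies outside it at 0.50. With libraries scaled by total reads, TES region 3 stood at 1.15 and TES region 4 at 0.47, which ends the 2-fold call of region 4, and the low glucose ratios were 0.05 in both.

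A 2-fold excess was less common among the members than over all regions. It was reached by 2 of 16 members at high glucose, against 41.6% of all regions, by 0 of 16 at low glucose, against 46.8%, and by 0 of 16 at both, against 31.4%. Since the members were chosen for high reads in all libraries, these shares are descriptions. The median log2 ratio of the 16 was 0.25 at high and 0.03 at low glucose, against 0.79 and 0.94 over all regions. An interval wholly above 0 was seen in 11 of 16 at high glucose, against 55.2% of all regions, and in 5 of 16 at low glucose, against 56.2%. Each member held at least 143 HNF4A reads at high glucose, against a median of 50 over all regions. Their intervals are therefore narrower and exclude 0 at smaller ratios. At high glucose 13 of 16 ratios lay above 0, against 84.2% of all regions, and at low glucose 10 of 16, against 91.5%. When libraries were scaled by their total reads over all regions, 2 of 16 lay above 0 at each level. The medians of all regions then fell too, to 0.25 and 0.39, so the shares above do not apply to that scaling. No share of all regions is given under it, so these counts are descriptions. In the authors' deposited tables, 0 of the 16 passed a false discovery rate of 0.05 in any of the 3 comparisons, as did 0% of all regions. In the authors' deposited tables over IgG, 1 of 16 had an unadjusted p under 0.05 at high glucose, TES region 3, against 4.96% of all regions, and 0 of 16 at low glucose, against 3.04%. The authors' deposited tables gave 0 of 16 an unadjusted p under 0.05 in the lower direction at high glucose, against 0.0188%.

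The remaining TES regions had lower ratios over IgG at both glucose levels. TES region 1 (115849041 to 115853526) held 646 HNF4A and 492 IgG reads at high glucose and 634 and 469 at low glucose, with ratios of 0.25 (0.08 to 0.42) and 0.41 (0.23 to 0.58). TES region 2 held 301 and 274, and 287 and 303, with ratios of -0.01 (-0.25 to 0.23) and -0.10 (-0.34 to 0.13). Of the 4 regions listed for this focal adhesion gene, TES region 2 thus stood at background, and TES region 1 a little above IgG at both levels. In scaled reads the excess of TES region 1 was 92 at high and 156 at low glucose, ranked 89th and 4th of all 5326 regions. By the ratio it ranked 3905th and 4140th, and scaled by total reads it stood at -0.29 and -0.14.

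For CAV1, the log2 ratio over IgG was 0.25 (0.20 to 0.31) at high glucose and 0.22 (0.16 to 0.28) when glucose was low. In scaled reads the excess of HNF4A over IgG in this region was 847 at high and 631 at low glucose, the 2nd highest and the highest of all 5326 regions. By the ratio itself the same region ranked 3888th and 4548th. Scaled by total reads, the CAV1 ratios turn to -0.29 and -0.33. By that scale the region held a smaller share of the HNF4A reads than of the IgG reads over all listed regions. The shift is the same for every region, so the sign over IgG depends on the scaling. MET region 1 stood at 0.25 (0.14 to 0.36) and 0.08 (-0.04 to 0.20). MET region 2 stood at 0.11 (-0.10 to 0.32) and 0.02 (-0.20 to 0.25), and MET region 3 at 0.18 (-0.18 to 0.55) and 0.33 (-0.09 to 0.75). Only 1 of these 6 MET intervals excluded 0, that of region 1 at high glucose. CAPZA2 region 1 stood at -0.03 (-0.14 to 0.08) and -0.19 (-0.30 to -0.07), and CAPZA2 region 2 at 0.10 (0.00 to 0.20) and 0.13 (0.02 to 0.23). CAPZA2 region 1 at low glucose was the only one of the 16 with an interval wholly below 0 at either level, against 2.07% of all regions at high and 0.713% at low glucose.

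In CAV2 regions 3 to 6 the ratio over IgG was above 0 at high glucose and near 0 at low glucose, with intervals that did not overlap. CAV2 region 3 was the closest case, at 0.30 (0.17 to 0.43) and 0.03 (-0.10 to 0.17), whose bounds meet when rounded. What share of all regions has separate intervals is not given here, so this is a description. Because the members hold more reads than most regions, their intervals separate at smaller differences. The larger ratio was that of high glucose for 12 members and that of low glucose for 4. Over all 5326 regions these counts were 2222 and 3104. CAV2 region 4 stood at 0.50 (0.42 to 0.58) over IgG at high glucose and at -0.01 (-0.09 to 0.06) at low glucose, a difference of 0.51 (0.40 to 0.63). CAV2 region 5 stood at 0.36 (0.25 to 0.48) and -0.06 (-0.17 to 0.05), and CAV2 region 6 at 0.27 (0.16 to 0.38) and -0.03 (-0.13 to 0.08). CAV2 region 1, at -0.05 (-0.20 to 0.09) and 0.01 (-0.13 to 0.14), had a difference of -0.06 (-0.26 to 0.14). Scaled by total reads, CAV2 regions 3 to 6 lay below 0 at both levels, at -0.24, -0.04, -0.18 and -0.27 at high and between -0.61 and -0.51 at low glucose, and the differences between the levels keep their sign. For TES region 3 the difference was 1.10 (0.66 to 1.54), and for TES region 4 it was 0.42 (-0.02 to 0.86).

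**Figure D3:**
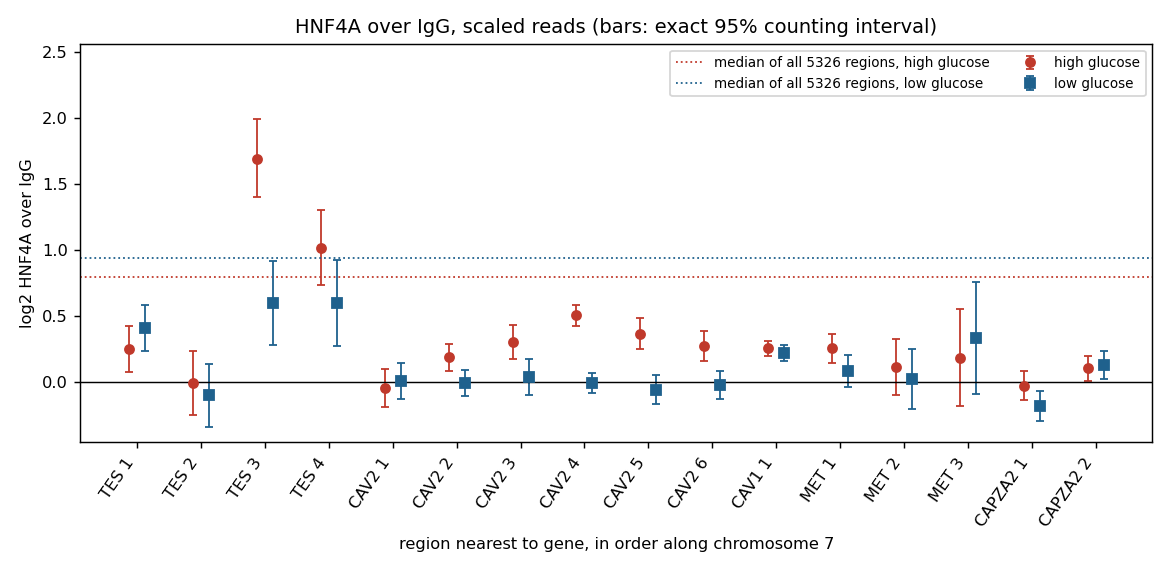
Log2 ratio of scaled HNF4A over IgG reads for the 16 regions at high and at low glucose, with exact 95% counting intervals and the medians of all 5326 regions (0.79 and 0.94) as dotted lines. TES regions 3 and 4 at high glucose lie above both medians, and the other 14 regions lie below both at either glucose level.

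The 2 libraries of each antibody were then compared between high and low glucose. In TES region 3 the HNF4A reads were higher at high glucose, with a log2 ratio of 0.90 (0.66 to 1.15), while IgG stood at -0.19 (-0.56 to 0.17). TES region 4 stood at 0.63 (0.37 to 0.89) for HNF4A and 0.21 (-0.14 to 0.56) for IgG. In CAV2 regions 4, 5 and 6 HNF4A stood at 0.05 (-0.02 to 0.13), 0.05 (-0.06 to 0.15) and -0.01 (-0.12 to 0.09), and IgG at -0.46 (-0.54 to -0.38), -0.38 (-0.50 to -0.26) and -0.31 (-0.42 to -0.19). How far each antibody takes part depends on the scaling. With total reads, TES region 3 stood at 0.60 for HNF4A and -0.51 for IgG, and CAV2 regions 4 to 6 at -0.26, -0.26 and -0.32 for HNF4A and -0.77, -0.70 and -0.62 for IgG. Since the HNF4A reads at high glucose also set TES regions 3 and 4 apart from IgG, their values here are descriptions.

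An exact 2-sided binomial test of the reads of 2 libraries, Benjamini-Hochberg adjusted over all 5326 regions, compares those libraries and not the conditions. Of the other 14 regions it called 4 higher at high glucose for HNF4A, against 13% of all regions, and 1 lower, against 0.263%. Of all 16, 11 had a ratio above 0, against 81.8%, and 0 differed 2-fold in either direction, against 7.49%. Scaled by total reads, 2 of 16 lay above 0, and the median of all regions fell to 0.05. No share of all regions is given for that scaling, so the count is a description. The members hold more reads than most regions, so the test reaches smaller differences in them. The CAV1 region was higher by 0.23 (0.17 to 0.28; exact binomial test, adjusted p = 1.66e-11), but so was IgG there, by 0.19 (0.13 to 0.25; adjusted p = 8.75e-07). Scaled by total reads, these CAV1 values turn to -0.08 and -0.12. MET region 1 was higher by 0.23 (0.12 to 0.34; exact binomial test, adjusted p = 0.00120), with IgG at 0.06 (-0.06 to 0.18), and turns to -0.08 when scaled by total reads. CAPZA2 region 2, at 0.17 (0.07 to 0.26), and CAV2 region 3, at 0.18 (0.06 to 0.31), were the remaining 2 called higher, and turn to -0.14 and -0.13. CAV2 region 1 was lower, at -0.23 (-0.37 to -0.09; exact binomial test, adjusted p = 0.0145), with IgG at -0.17 (-0.32 to -0.03). In the authors' deposited table of this comparison, 2 of 16 had an unadjusted p under 0.05, TES region 3 at 0.00695 and the CAV1 region at 0.0196, both higher, against 4.39% of all regions, and both had a false discovery rate of 0.914.

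For IgG, the same test called 2 of 16 higher at high glucose, against 14.3% of all regions, and 4 lower, against 0.958%. The ratio lay above 0 in 7 of 16, against 77.9%, and 0 differed 2-fold, against 22.8%. Scaled by total reads, the ratio lay above 0 in 1 of 16, and the median of all regions fell to 0.20. That count, too, is a description without a share of all regions. The 4 lower were CAV2 regions 2, 4, 5 and 6, and the 2 higher were the CAV1 region and CAPZA2 region 2. In CAV2 region 4 the exact binomial test of the IgG reads gave an adjusted p of 9.93e-25. Between the same 2 IgG libraries CAV2 region 4 was lower and the CAV1 region higher, but with scaling by total reads both were below 0, at -0.77 and -0.12. The median log2 ratio of high over low glucose was 0.14 for HNF4A and -0.06 for IgG over the 16, against 0.36 and 0.51 over all regions. Scaled by total reads, the medians of the 16 were -0.17 and -0.38, against 0.05 and 0.20 over all regions.

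**Figure D4:**
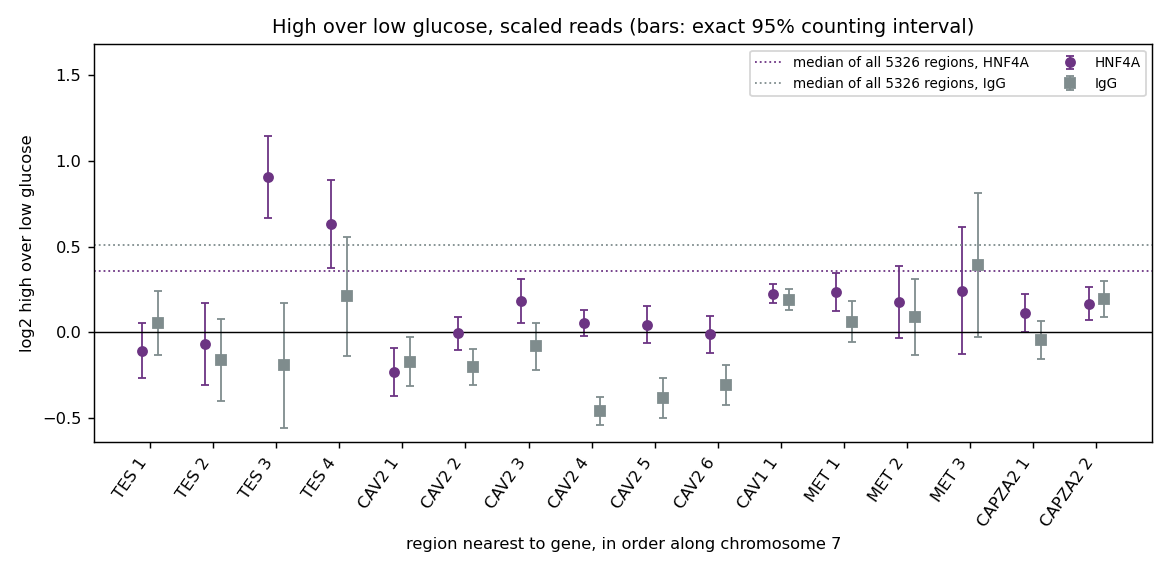
Log2 ratio of scaled reads at high over low glucose for HNF4A and IgG in the 16 regions, with exact 95% counting intervals and the medians of all 5326 regions (0.36 and 0.51) as dotted lines. HNF4A leads IgG at TES region 3, IgG falls below HNF4A at CAV2 regions 4 to 6, and the CAV1 region has 0.23 and 0.19.

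Outside the stretch, 154 regions were also high in all 4 libraries. Their median log2 ratio over IgG was 0.15 at high and -0.14 at low glucose, against 0.25 and 0.03 for the 16. Their median for high over low glucose was 0.07 for HNF4A and -0.16 for IgG, against 0.14 and -0.06. The ratio over IgG lay above 0 in 95 of the 154 at high and 55 at low glucose, against 13 and 10 of the 16. Intervals lay wholly above 0 in 43 and 13 of the 154, against 11 and 5 of the 16. They lay wholly below 0 in 24 and 20, against 0 and 1. They were shorter, with a median of 547 bp. TES region 3 had the highest ratio over IgG at high glucose of all 170 such regions. Next to it came 1.57 for the MDFIC region at 114529243 to 114530676, in the same interval of chromosome 7, and TES region 4 ranked 6th. With 1 TFEC region, the 16 formed an unbroken run of 17 neighbouring regions high in all 4 libraries. Of 21 runs of at least 3, only the 19 regions nearest to LOC441666 on chromosome 10 were more numerous. They covered 221 kb, against 812 kb for the run on chromosome 7. The other runs among the 5 longest were 15 regions nearest to ACTR3BP2 on chromosome 2, 13 from MDFIC to LINC01393 on chromosome 7, and 6 nearest to ANKRD26P1 on chromosome 16.

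By the smallest distance over the 4 libraries in log2 scaled reads per kb, the regions most like MET region 1 lay nearest to LOC101927151 on chromosome 19 (0.25), LOC441666 (0.38) and LOC101927237 on chromosome 4 (0.39). Those most like the CAV1 region lay nearest to ZNF733P on chromosome 7 (0.50), LOC441666 (0.53) and ACTR3BP2 (0.67). None of these is a gene of the MET or caveolin pathways.

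Genes that work with the 5 members but lie elsewhere were read in the same way. None of the 16 genes of MET signalling with a region (of 36 searched) was high in all 4 libraries. Nor was any of 4 of 19 caveola coat and neck genes, 8 of 26 actin filament genes or 9 of 20 focal adhesion partners of testin. That is near what the 3.19% over all regions gives. Their highest IgG density at high glucose was 56.6 reads per kb, at ARPC1B, below the lowest member. The 16 MET signalling genes all exceeded IgG in both comparisons, though under one scaling only. Scaling by total reads moves each ratio by -0.54 at high and -0.55 at low glucose, and the lowest of these genes stood at 0.34 at each level. Their medians were 0.98 at high and 1.15 at low glucose, and 8 and 10 reached 2-fold, against 41.6% and 46.8% of all regions. The medians over all regions were 0.79 and 0.94, and 84.2% and 91.5% of regions exceeded IgG. They included CRK, an adaptor of the receptor's signal. At high glucose CRK held 68 HNF4A against 13 IgG reads, and its ratios were 2.24 (1.37 to 3.22) and 2.41 (1.01 to 4.14). RAPGEF1 stood at 2.07 (1.30 to 2.92) and 0.97 (0.12 to 1.88), and SOS1, an exchange factor of RAS, at 1.78 (1.20 to 2.40) and 1.58 (0.87 to 2.35). At high glucose PAK1 held 26 HNF4A reads against 1 IgG read as listed, which may stand for 0, so no fold is given, and its low glucose ratio was 1.30 (0.05 to 2.69). For HNF4A at the 2 glucose levels, the exact binomial test called 5 of these 16 genes higher at high glucose and 0 lower, against 13% and 0.263% of all regions, with a median of 0.49 against 0.36 over all regions.

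The 4 caveola genes all exceeded IgG too, with medians of 0.99 and 1.72. They were PRKCDBP (cavin-3), at 2.48 (1.55 to 3.55) and 1.34 (0.41 to 2.34), PACSIN3, at 1.12 (0.21 to 2.09) and 2.11 (0.67 to 3.87), SDPR (cavin-2), at 0.85 (-0.12 to 1.89) and 2.85 (1.61 to 4.37), and EHD1, at 0.27 (-0.42 to 0.97) and 0.70 (-0.15 to 1.58). Of the 8 actin filament genes, not all of which encode capping proteins, 6 exceeded IgG at high and 7 at low glucose. Their medians were 0.49 and 1.13. ACTR3, of the Arp2/3 complex, stood highest at high glucose, at 2.01 (0.94 to 3.23), followed by CFL1 (cofilin) at 1.82 (0.89 to 2.87), CAPG at 1.47 (0.63 to 2.38) and EPS8 at 0.76 (0.31 to 1.22). All 9 focal adhesion genes exceeded IgG in both comparisons, and the medians were 1.34 and 1.82. At high glucose the lowest ratios of the caveola and focal adhesion lists were 0.27 and 0.05. Scaling by total reads, with its shift of -0.54, takes these below 0, so not all of these genes exceed IgG under it. Highest at high glucose were FLNA (filamin A) at 1.95 (0.74 to 3.38), LIMD1 at 1.56 (0.80 to 2.38) and PXN (paxillin) at 1.52 (1.03 to 2.04). In HNF4A at high over low glucose the exact binomial test called 2 of these 9 higher, against 13% of all regions. Against the same share it called 0 of the caveola and 0 of the actin filament genes higher, and 0 of the 3 lists lower. At low glucose all members stood nearer to IgG than the medians of the MET signalling, caveola, actin filament and focal adhesion lists. At high glucose TES region 3 stood above each of these medians, and TES region 4 above all but the focal adhesion median of 1.34. CAV2 region 4 stood above the actin filament median of 0.49 only, and the other members were nearer to IgG than all of them. Of 13 neighbours on 7q31 searched, 4 had a region, ANKRD7, TFEC, FOXP2 and MDFIC, with a median over IgG of -0.04 at high and 0.35 at low glucose, where each gene is represented by 1 region. Of those 4 regions only that of MDFIC was high in all 4 libraries, and another TFEC region, next to TES, was too.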

How the data were processed

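HNF4A and IgG ChIP-seq libraries of HCCLM3 cells at high and low glucose were compared, 1 library per group. Tools named in the submitters' processing notes are bcl2fastq, Bowtie 1.1.2, MACS, DiffBind and HOMER, with build hg19. Not given in the sources used here are their settings, the choice of regions and the full sequencing depth. Per the labels' protocols, 15 PCR cycles were run. The authors deposited 3 tables of the same 5326 regions, each with log2 levels, a log2 fold, a p-value and a false discovery rate. Starts count from 0 there and are printed from 1.

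Without the log, 100% of the deposited levels were whole multiples of 1 step per library (within 0.01), which gave the reads and the relative library sizes of 1.10 and 0.993 (HNF4A, IgG) at high and 1 and 0.982 at low glucose. Over all regions the libraries held 402237, 249744, 295460 and 198683 reads in that order. The columns name no library, so each side was taken from the table's comparison and checked by equal reads across tables. Exact intervals (Clopper-Pearson, and conditional odds ratio intervals for differences of ratios) and binomial tests used scipy 1.17.1, numpy 2.4.6 and pandas 2.3.3 in Python 3.11.15. Clopper-Pearson intervals and binomial tests were run on simulated independent reads, the model they assume. That checks the code only, since PCR copies, replicate spread and errors of library size were not simulated.

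Named are all members, the 4 nearest regions on each side, the 3 regions most like the top MET and CAV1 regions, the 5 longest runs and up to 4 genes per list by absolute ratio over IgG at high glucose, where a gene with several regions takes the one of highest mean level. One gene that this rule names is not reported here. Members, lists and tests were chosen with earlier results of these data known. Alternatives were total-read scaling, a minimum of 10 reads, other calls, percentiles and references.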

Additional observations from a re-analysis of the deposited data

Results flagged for a closer look

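In 5 of the 16 regions, all nearest to CAV2, the log2 HNF4A over IgG ratio had opposite signs at the 2 glucose levels, with 1 library per group. No share of all regions with opposite signs is given here, so the count is a description. The medians of the 16 lay nearer 0, at 0.25 and 0.03 against 0.79 and 0.94 over all regions. Opposite signs then need smaller differences. With libraries scaled by total reads, all 5 lay below 0 at both levels, so the opposite signs are seen under one scaling only. CAV2 region 2 stood at 0.18 at high and -0.012 at low glucose, CAV2 region 4 at 0.50 and -0.013, CAV2 region 5 at 0.36 and -0.063, and CAV2 region 6 at 0.27 and -0.025. CAV2 region 1 went the other way, at -0.051 and 0.0056. The intervals at low glucose included 0 in all 5 of these CAV2 regions. No test between conditions was possible. The counting interval of the difference between the levels lay above 0 in CAV2 regions 2 (0.05 to 0.34), 4 (0.40 to 0.63), 5 (0.27 to 0.59) and 6 (0.14 to 0.45). It included 0 in region 1 (-0.26 to 0.14). For these intervals, too, no share of all regions is given. IgG reads were lower at high glucose in the same 5 regions.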

How the results depend on the processing

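No paired analysis was possible because each group has 1 library, and for the same reason none could be left out. All 16 regions were high in all 4 libraries also by reads per region and at the 95th and 75th percentiles (314, 136 and 333 of all regions). Requiring 10 reads could change no value, since every member held at least 86 reads in each library. Of the 2 regions at least 2-fold above IgG at high glucose, 1 was left with scaling by total reads and 1 when the whole interval had to reach 2-fold. It was TES region 3 in both cases. For neither setting is a share of all regions given here, so these counts are descriptions. With an interval above 0 in place of 2-fold, the counts were 11 at high and 5 at low glucose, against 55.2% and 56.2% of all regions. The members' intervals are narrower, as they hold more reads than most regions. At both levels the count was 5, for which no share of all regions is given here, so it is a description. Scaling by total reads moved every region over IgG by -0.54 at high and -0.55 at low glucose. Between the HNF4A and between the IgG libraries it moved every region by -0.31. The medians of all regions became 0.25 and 0.39 over IgG, 0.05 between the HNF4A and 0.20 between the IgG libraries. The medians of the 16 then reversed to -0.29 and -0.52 over IgG and to -0.17 between the HNF4A libraries, and the median between the IgG libraries moved to -0.38. With reads summed over the 16, the log2 ratio over IgG at low glucose was 0.067 in place of 0.03. The IgG density over other chromosome 7 regions, 6.90-fold and 10.5-fold, was 9.19-fold at low glucose from summed reads, 8.20-fold and 13.0-fold against other chromosomes, and 7.71-fold and 11.6-fold without TES regions 3 and 4. Depth limits MET region 3 most, where IgG at low glucose held 86 reads.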
